A study of Mus musculus with 30 samples.

Results

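The 10 genes described here were *Dppa3*, *Khdc1a*, *Khdc1b*, *Khdc1c*, *Khdc3*, *Ooep*, *Tle6*, *Padi6*, *Zbed3* and *Gdf9*, whose transcripts are stored in the mouse oocyte or mark it. They were picked by name from the 55487 genes counted in each embryo. The choice was made for the drop of their transcripts from E2.5 to E2.75 and for whether *Dis3* null embryos kept them, with earlier results of the same embryos known. Values by stage and of null against the other genotypes are therefore the measurements that chose the genes. Het embryos were set against the same wild-type embryos, so that comparison is not independent of the choice either. All RNA values of the 10 genes are given as a description. All 10 genes passed the filter on low counts in the fit of the 23 embryos.

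The embryos came from matings of *Dis3* het mice and were sequenced one by one, with the genotype read from the genomic DNA of the same embryo. The *Dis3* null allele lacks exons of the gene that CRISPR-Cas9 removed, and DIS3 is an RNA-degrading enzyme of the exosome. The 12 embryos of E2.5 comprised 6 wild-type, 2 het and 4 null, and the 11 of E2.75 comprised 3 wild-type, 5 het and 3 null. Every embryo grew from the egg of a *Dis3* het mother, so any *Dis3* product stored in that egg was not removed by the embryo's own genotype. ERCC spike-in RNA was added to each embryo's lysate. A second readout was ChIP-seq of the transcription factor POU6F1, expressed as an mCherry fusion in mouse embryonic stem cells, with 2 replicates.

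Maternal-effect genes act from the mother's genome: the growing oocyte makes and stores their RNA and protein, and the embryo depends on these stores during the first cleavages. In the mouse most stored RNA is destroyed by the time the embryonic genome takes over, and some of these genes are then transcribed again by the embryo. DPPA3, also named STELLA or PGC7, protects maternal chromosomes from loss of DNA methylation. KHDC3 (FILIA), OOEP (FLOPED) and TLE6 are parts of the subcortical maternal complex under the oocyte membrane, PADI6 is needed for the cytoplasmic lattices, ZBED3 is a further protein linked to that complex, and GDF9 is a growth factor the oocyte secretes. KHDC1 proteins are KH-domain relatives expressed in oocytes. Sequencing of polyadenylated RNA does not separate a stored transcript from one newly made.

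Libraries held 1690192 to 14015980 gene counts, with a median of 8030848, and those of null embryos were the smallest on average at both stages. At E2.75 the mean was 3551770 ± 3032490 (SD, n = 3) in null, 6652870 ± 2933840 (SD, n = 3) in wild-type and 8331430 ± 4378650 (SD, n = 5) in het embryos. At E2.5 it was 6227920 ± 2769140 (SD, n = 4), 10068900 ± 3101200 (SD, n = 6) and 9857380 ± 2397850 (SD, n = 2) in the same order. *Dis3* itself stood at 18.2 to 143 CPM (counts per 1000000 gene counts, after TMM scaling) in wild-type, 58.7 and 60.1 in het and 0 to 15.5 in null embryos at E2.5. At E2.75 it was at 68.0 to 116 CPM in wild-type, 30.9 to 51.1 in het and 10.1 to 20.9 in null embryos. Wild-type replicate 6 of E2.5, so labelled, had 18.2 CPM, above all 4 null embryos of its stage but below the highest of the 3 at E2.75. The levels, fold changes and calls of the 10 genes that rest on it are therefore also given without it where they moved. Reads assigned to no gene include those only partly inside annotated exons, by the strict counting mode of the study. They were 35.7% ± 3.46 (SD, n = 4) of gene, ambiguous and unassigned reads together in null embryos at E2.5 and 42.6% ± 1.43 (SD, n = 3) at E2.75. In wild-type embryos they were 23.7% ± 1.55 (SD, n = 6) and 28.6% ± 4.91 (SD, n = 3). Of 11 markers of cumulus and granulosa cells, which surround the oocyte, *Inha*, *Inhba*, *Cyp11a1* and *Ptx3* were at 0 in all embryos. Their summed level was 16.5 ± 10.7 CPM (SD, n = 6) in wild-type and 40.9 ± 22.1 (SD, n = 4) in null embryos at E2.5, and 10.6 ± 3.32 (SD, n = 3) and 30.2 ± 1.09 (SD, n = 3) at E2.75, most of it *Amhr2*. Without the library labelled wild-type replicate 6 the first of these sums was 13.2 ± 7.61 CPM (SD, n = 5). Their part in the results below was not tested.

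*Khdc1a*, *Khdc1c* and *Khdc1b* lie in a row on the plus strand of chromosome 1 of GRCm38, at 21349641 to 21352200, 21368331 to 21370845 and 21383556 to 21386373, with 16130 and 12710 bases between neighbours. The main transcripts of *Khdc1a* and *Khdc1c* were 98.1% identical over 1934 aligned bases, and 32.1% of the stretches of 75 bases in *Khdc1a* occurred unchanged in *Khdc1c*. A read inside such a stretch cannot be placed at one of them, so their levels are uncertain relative to each other. *Khdc1b* was 80.2% identical to *Khdc1a* and shared 0.993% of its stretches of 75 bases. The 30-base windows around the AATAAA polyadenylation signal nearest to the 3′ end of the transcripts, with the signal in capitals, show the likeness of *Khdc1a* and *Khdc1c* beside 2 other genes of the set.
*Khdc1a*: actatttgttctAATAAAgatacaggtggg
*Khdc1c*: actatttgttctAATAAAgatacaggtggg
*Dppa3*: ccagaaatttgtAATAAAagcatttttgtt
*Khdc3*: ttaaagtattctAATAAAaaaaaaattgca
The windows of *Khdc1a* and *Khdc1c* were the same letter for letter, while those of *Dppa3* and *Khdc3* shared with them the signal itself. AATAAA was found on the transcript strand in the last 100 bases of 8 of the 10 genes, all but *Khdc1b* and *Ooep*, against 64.8% of 19356 coding genes. TTTTAT, the core of a cytoplasmic polyadenylation element, was found in the same window of *Khdc1b*, *Zbed3* and *Gdf9*, against 13.9% of coding genes.

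The other genes are spread over the genome. *Dppa3* lies on chromosome 6 at 122626410 to 122630272, *Padi6* on chromosome 4 at 140727355 to 140742643, *Tle6* on chromosome 10 at 81590904 to 81601073, *Gdf9* on chromosome 11 at 53431023 to 53437904 and *Zbed3* on chromosome 13 at 95323612 to 95337841. *Khdc3* and *Ooep* share chromosome 9, at 73101836 to 73104438 and 78376109 to 78378725. *Khdc3* shares 790 exonic bases with *Gm20509* on the same strand, so reads there cannot be given to one of them. *Gm20509* itself was low, at 0 to 5.26 CPM in all embryos.

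Levels per kilobase of exon spanned a wide range. In wild-type embryos at E2.5, *Dppa3* stood at 13998 ± 3532 CPM per kb (SD, n = 6), followed by *Khdc3* at 837 ± 537, *Khdc1a* at 378 ± 127 and *Khdc1c* at 99.5 ± 36.9. *Khdc1b* was at 16.9 ± 12.8 CPM per kb and *Padi6* at 7.78 ± 2.83. *Gdf9*, *Ooep*, *Tle6* and *Zbed3* followed at 3.84 ± 3.29, 3.72 ± 2.91, 2.54 ± 2.66 and 1.20 ± 1.93 CPM per kb, and these neighbours did not differ beyond their spread. Without the library labelled wild-type replicate 6, *Dppa3* was at 14284 ± 3871 CPM per kb (SD, n = 5), *Tle6* at 1.72 ± 1.94 and *Zbed3* at 0.419 ± 0.209, and the order was the same. *Dppa3* alone took 0.786% to 1.39% of the gene counts of a wild-type library at E2.5.

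**Figure D1:**
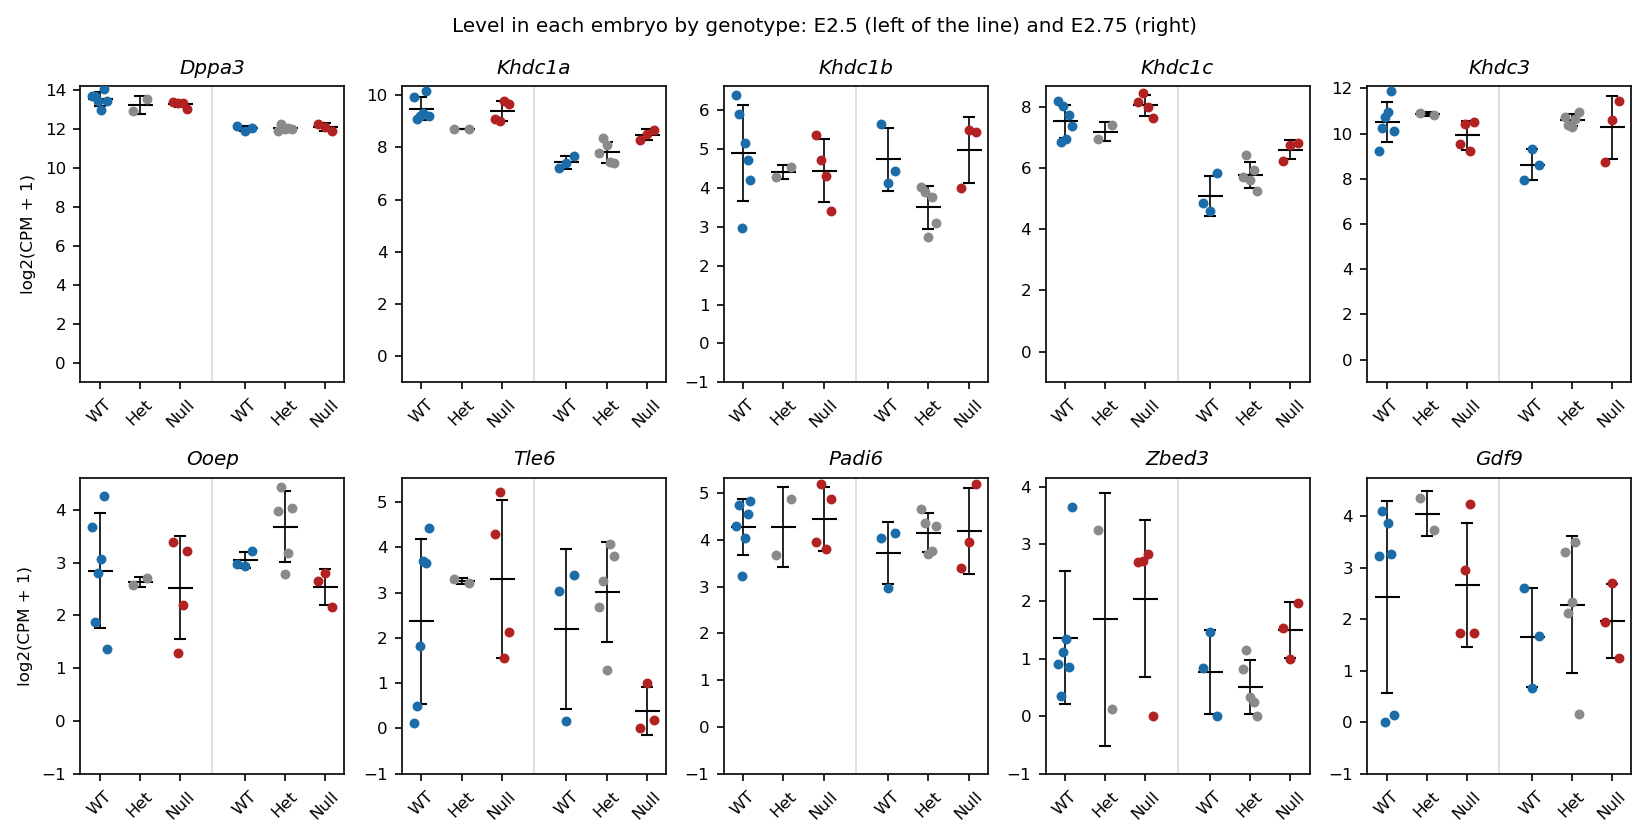
Level of each gene as log2(CPM + 1) on the y axis by genotype on the x axis, E2.5 left and E2.75 right of the line; points are embryos, bars the mean and SD on that scale. *Dppa3*, *Khdc1a* and *Khdc1c* were lower at E2.75 in each genotype with no overlap between stages. This held for 5.47% of all genes in wild-type, 8.17% in het and 5.12% in null embryos. *Tle6*, *Zbed3* and *Gdf9* scattered within groups.

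In wild-type embryos, 4 of the 10 genes were called lower at E2.75 than at E2.5, namely *Dppa3*, *Khdc1a*, *Khdc1c* and *Khdc3*. Calling a gene required a Benjamini-Hochberg adjusted p below 0.1 from edgeR's quasi-likelihood test, with a fold change of more than 1 on the log2 scale. Over all 18677 genes tested 3.64% were called lower, but the genes were chosen on this contrast and nothing is read from the count. The median log2 fold change of the 10 genes was -1.66, against 0 over all genes tested. All 10 estimates were negative with TMM scaling, and those of *Khdc1b*, *Ooep*, *Tle6* and *Padi6* were positive with scaling to the spike-in, as was that of *Zbed3* once the library labelled wild-type replicate 6 was also left out.

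*Dppa3* gave the most abundant transcript of the set. In wild-type embryos it ranged at E2.5 from 8127 to 17496 CPM with a median of 12332, and at E2.75 it was at 4541, 3886 and 4312 CPM. The 4 null embryos of E2.5 held 10952, 10369, 10557 and 8447 CPM, and the 3 of E2.75 held 5022, 4466 and 3831 CPM. The 2 het embryos at E2.5 were at 7812 and 12122 CPM and the 5 at E2.75 between 3881 and 4947, with a median of 4130.3. In each genotype every embryo at E2.75 was below every embryo at E2.5, as for 5.47% of all genes in wild-type, 8.17% in het and 5.12% in null embryos, and at E2.75 the genotypes overlapped. The log2 fold change was -1.65 (SE 0.21) in wild-type, -1.29 (SE 0.22) in het and -1.28 (SE 0.21) in null embryos, all 3 called.

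*Khdc1a* and *Khdc1c* moved alike, within the limit that reads from their shared stretches set. *Khdc1a* in wild-type embryos ranged at E2.5 from 552 to 1157 CPM with a median of 620 and stood at E2.75 at 147, 168 and 203 CPM. Null embryos of E2.5 held 552, 522, 877 and 812 CPM, while those of E2.75 held 307, 370 and 412 CPM. The stages did not overlap in either genotype, as for 5.47% of all genes in wild-type and 5.12% in null embryos. All 3 null embryos at E2.75 were above all 3 wild-type embryos, as for 11.1% of genes. Het embryos held 416 and 415 CPM at E2.5, and 170 to 326 CPM with a median of 219 at E2.75. Their stages did not overlap either, as for 8.17% of genes. The log2 fold change between stages was -2.23 (SE 0.30) in wild-type and -1.03 (SE 0.30) in null embryos, both called, and -0.90 (SE 0.30) in het embryos, not called.

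*Khdc1c* in wild-type embryos ranged at E2.5 from 115 to 289 CPM with a median of 188 and was at 27.6, 23.3 and 56.1 CPM at E2.75. Null embryos of E2.5 held 286, 346, 251 and 196 CPM, while those of E2.75 held 74.2, 108 and 111 CPM. Again the stages did not overlap, as for 5.47% of all genes in wild-type and 5.12% in null embryos. The null embryos at E2.75 lay above the wild-type embryos, as for 11.1% of genes. Het embryos held 123 and 168 CPM at E2.5, and between 37.1 and 84.1 CPM at E2.75, with a median of 50.9. Their stages did not overlap either, as for 8.17% of genes. The log2 fold change was -2.56 (SE 0.38) in wild-type and -1.56 (SE 0.37) in null embryos, both called, and -1.45 (SE 0.37) in het embryos, not called. *Khdc1b*, the third of the cluster, overlapped between the stages in wild-type and null embryos, with log2 fold changes of -0.48 (SE 0.62) and 0.45 (SE 0.66).

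*Khdc3* was the gene of these 4 whose estimate in null embryos was not negative. Wild-type embryos ranged at E2.5 from 594 to 3739 CPM with a median of 1457 and were at 247, 629 and 392 CPM at E2.75. Null embryos of E2.5 held 732, 1393, 603 and 1449 CPM, while those of E2.75 held 431, 1540 and 2820 CPM. One wild-type embryo at E2.5, at 594 CPM, was below the highest at E2.75, and the 3 null embryos at E2.75 spread from a value within the wild-type range to values above it. The log2 fold change was -2.13 (SE 0.51) in wild-type embryos, called, and 0.52 (SE 0.49) in null embryos, not called. Het embryos held 1949 and 1806 CPM at E2.5, and between 1245 and 1954 CPM at E2.75, and changed by -0.33 (SE 0.53).

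The 3 genes called lower in null embryos were *Dppa3*, *Khdc1a* and *Khdc1c*, against 1.77% of 18677 genes called lower between the stages of null embryos. In het embryos only *Dppa3* was called, against 0.273% called lower. Without the library labelled as replicate 6 of E2.5 wild-type embryos the same 4 genes were called in wild-type embryos, with log2 fold changes of -1.69 for *Dppa3*, -2.29 for *Khdc1a*, -2.61 for *Khdc1c* and -2.23 for *Khdc3*. Leaving out any 1 of the 3 null embryos at E2.75 left 1 gene called in null embryos, which was *Dppa3* each time. In het embryos *Dppa3* was no longer called without E2.5 het replicate 2, which leaves 1 embryo in that group.

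**Figure D2:**
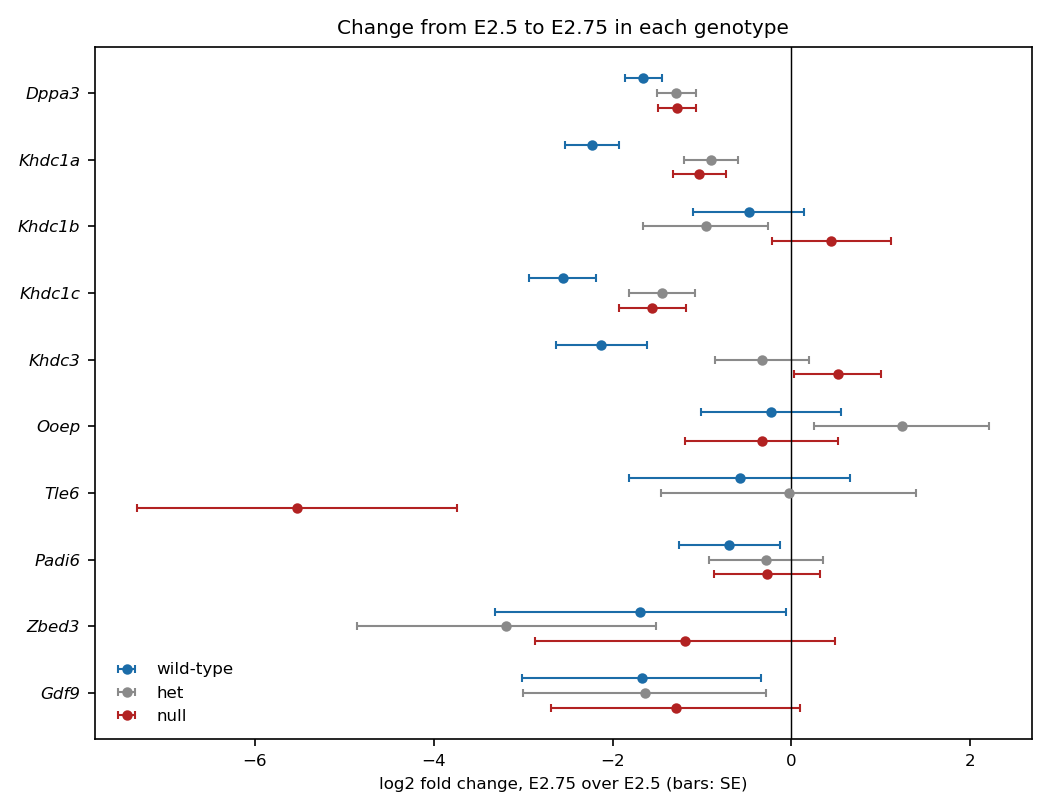
Log2 fold change from E2.5 to E2.75 on the x axis for each gene on the y axis, in wild-type, het and null embryos, with bars for the SE. *Dppa3* changed by -1.65, -1.29 and -1.28 in the 3 genotypes, and *Khdc3* by -2.13 in wild-type and 0.52 in null embryos.

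The change between stages of null embryos minus that of wild-type embryos was 2.64 (SE 0.69) for *Khdc3*, 1.20 (SE 0.40) for *Khdc1a*, 1.00 (SE 0.49) for *Khdc1c* and 0.38 (SE 0.28) for *Dppa3* on the log2 scale. None of the 10 genes was called in this interaction, and neither was any of the 18677 genes with edgeR, a background of 0%, while 2046 genes reached an unadjusted p of 0.05 or less. By DESeq2, 220 genes were called higher and 124 lower, among them *Khdc3* at 2.62 of the 10 genes. Without the library labelled as replicate 6 of E2.5 wild-type embryos these values were 2.75 for *Khdc3*, 1.26 for *Khdc1a*, 1.05 for *Khdc1c* and 0.42 for *Dppa3*. *Tle6* had the value farthest from 0, at -4.95 (SE 2.04), on the few counts given next.

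The other genes were low and scattered among embryos of one group. *Tle6* in wild-type embryos ranged at E2.5 from 0.0793 to 20.6 CPM with a median of 7.09 and was at 7.18, 0.118 and 9.46 CPM at E2.75. Null embryos of E2.5 held 18.7, 36.3, 1.93 and 3.35 CPM, while those of E2.75 held 0, 0.996 and 0.138 CPM, that is 0, 2 and 1 counts. All 3 null embryos at E2.75 were thus below all 4 at E2.5, as for 5.12% of all genes. The libraries of the 3 at E2.75 held 1914128, 1690192 and 7051002 gene counts. The summed 3 counts gave a ratio of 0.0162 to the summed level at E2.5, with an exact 95% interval of 0.00332 to 0.0475 that covers counting error only. The fitted log2 fold change of -5.52 (SE 1.79) depends on the prior count and was not called, while DESeq2 called *Tle6* lower, at -5.44. Het embryos held *Tle6* between 1.45 and 15.8 CPM at E2.75, above every null embryo of that stage, as for 7.16% of genes.

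*Padi6* ranged in wild-type embryos from 8.34 to 27.4 CPM at E2.5 with a median of 20.6 and was at 15.4, 6.82 and 16.8 CPM at E2.75, and null embryos ranged from 12.9 to 35.5 CPM at E2.5 and from 9.57 to 35.7 CPM at E2.75. *Ooep* was between 1.57 and 18.3 CPM in wild-type embryos at E2.5, with a median of 6.70, and at 6.91, 6.70 and 8.36 CPM at E2.75. Both genes overlapped between the stages in wild-type and in null embryos, with log2 fold changes of -0.69 (SE 0.56) and -0.28 (SE 0.59) for *Padi6* and -0.23 (SE 0.78) and -0.33 (SE 0.86) for *Ooep*. Het embryos held *Ooep* at 4.95 and 5.52 CPM at E2.5 and between 5.90 and 20.5 CPM at E2.75. The later stage was higher without overlap, as for 7.71% of all genes in het embryos. The log2 fold change was 1.23 (SE 0.98) and was not called. Null embryos at E2.75 held *Ooep* at 5.26, 5.98 and 3.46 CPM, below all 3 wild-type embryos, as for 12% of genes. The log2 fold change was -0.54 (SE 0.73), not called.

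*Gdf9* ranged in wild-type embryos at E2.5 from 0 to 16.1 CPM with a median of 8.51 and was at 5.05, 0.588 and 2.199 CPM at E2.75. *Zbed3* ranged in the same groups from 0.281 to 11.5 CPM with a median of 1.02 and was at 0.797, 1.76 and 0 CPM. A count of 0 allows up to 3 counts. For both genes the stages overlapped in wild-type and null embryos. The highest *Zbed3* value at E2.5 was that of the library labelled wild-type replicate 6, and without it the log2 fold change of *Zbed3* between the stages moved from -1.69 to -0.22 that of *Tle6* from -0.58 to -0.04 and that of *Gdf9* from -1.67 to -1.94.

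Against wild-type embryos of the same stage, null embryos had no gene of the 10 called at E2.5, where 1.82% of 15904 genes were called in either direction. Their log2 fold changes ran from -0.66 for *Khdc3* (SE 0.40) to 0.98 for *Tle6* (SE 1.11), and no gene of the set had groups without overlap, which 3.09% of genes had as higher and 1.59% as lower. Without the library labelled wild-type replicate 6 the largest was 2.2 for *Zbed3*, and again none was called. At E2.75, 3 of the 10 were called higher in null embryos, against 2.19% of 14442 genes. These were *Khdc1a* at 1.12 (SE 0.29), *Khdc1c* at 1.5 (SE 0.41) and *Khdc3* at 1.95 (SE 0.48). *Dppa3* was at 0.11 (SE 0.21), or at -0.28 with scaling to the spike-in. Relative to the median of all genes it was at 0.12 with both scalings. *Tle6* had the largest change in this comparison and was lower in null embryos, at -3.98 (SE 1.57) on the 3 counts above, with groups that overlapped. It was not called by edgeR and was called lower by DESeq2, at -3.99. For *Khdc1a* and *Khdc1c* the groups did not overlap, as for 11.1% of genes that were higher in null embryos, and *Ooep* was lower without overlap, as 12% of genes were. Leaving out wild-type replicate 1, or null replicate 2 or 3, at E2.75 left none of the 3 called, and leaving out wild-type replicate 2 or 3 left 1 called.

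Against het embryos at E2.75, none of the 10 genes was called, where 4.82% of genes were called in either direction. *Khdc3* differed least, by 0.07 (SE 0.41), since het embryos held it at 1245 to 1954 CPM and 2 of the 3 null embryos were at 1540 and 2820 CPM. *Khdc1a* was at 0.70 (SE 0.25), *Khdc1c* at 0.86 (SE 0.35) and *Khdc1b* at 1.68 (SE 0.53) on the log2 scale. *Tle6* was lower in null embryos without overlap, as 7.16% of genes were, at -4.62 (SE 1.54) on the 3 counts above. With the stages combined by genotype none was called either, against 5.73%, and *Khdc1c* had the highest value at 1.39 (SE 0.50). That combined value mixed stages in unequal shares, and with stage as a term it was 0.82.

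**Figure D3:**
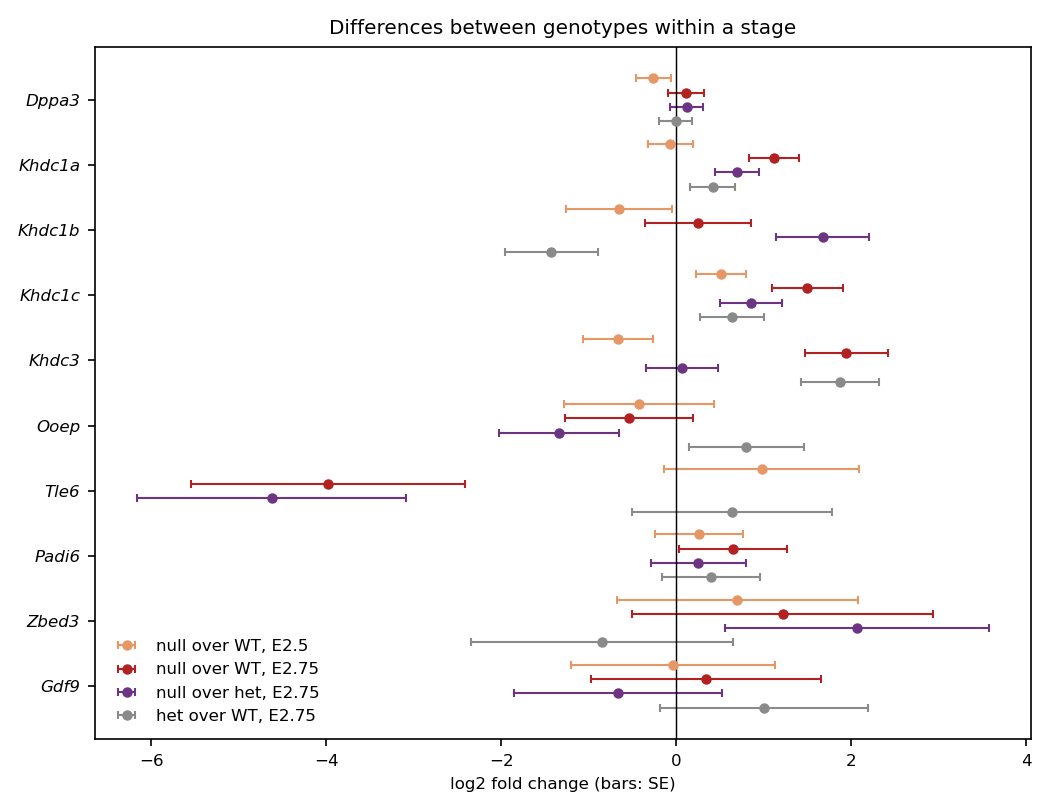
Log2 fold change between genotypes within a stage on the x axis for each gene on the y axis, with bars for the SE. *Khdc3* was at 1.95 in null over wild-type embryos and at 1.88 in het over wild-type embryos at E2.75, and at 0.07 in null over het embryos.

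Het and wild-type embryos were also set side by side, and calls of single genes are given as a description, without p-values. The wild-type embryos at E2.75 are the same as in the comparisons that chose the genes. *Khdc3* at E2.75 was at 247, 629 and 392 CPM in wild-type and at 1677, 1333, 1245, 1613 and 1954 CPM in het embryos. All 5 het embryos were above all 3 wild-type embryos, as for 3.78% of 14442 genes. The log2 fold change of *Khdc3* was 1.88 (SE 0.45), and it was not called.

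*Khdc1b* at E2.75 was at 49.4, 16.3 and 20.8 CPM in wild-type embryos and between 5.64 and 15.3 CPM in het embryos. The groups did not overlap, as for 3.16% of genes that were lower in het embryos. The log2 fold change was -1.43 (SE 0.53), and it was not called. None of the 10 genes was called at E2.75, and none over all 14442 genes with edgeR, a background of 0%, while 1366 genes had an unadjusted p under 0.05 and DESeq2 called 217 genes higher and 124 lower, of the 10 genes *Khdc3* at 1.86. With the stages combined none was called either, of the 10 genes or of the 13415 tested (0%), with 934 genes at an unadjusted p under 0.05 and 37 higher and 28 lower called by DESeq2. In the combined comparison *Khdc1a* was at -1.04 (SE 0.38) and *Dppa3* at -0.78 (SE 0.35), values that became -0.28 and -0.19 with stage as a term and -1.03 and -0.76 without the library labelled wild-type replicate 6 of E2.5. Without that library *Zbed3* moved from -0.45 to 0.73 and *Tle6* from 0.25 to 0.64, neither called.

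Levels against the ERCC spike-in gave the amount per embryo rather than the share of its RNA. Gene counts per ERCC count were 20.4 ± 5.36 (SD, n = 6) in wild-type and 14.4 ± 0.871 (SD, n = 4) in null embryos at E2.5, and 31.0 ± 6.68 (SD, n = 3) and 23.8 ± 5.43 (SD, n = 3) at E2.75. Scaled to the spike-in, the median log2 change between stages of all genes tested was 0.89 in wild-type and 0.97 in null embryos, where TMM scaling gave 0 in both. Gene counts leave out reads assigned to no gene. Their share was 35.7% in null and 23.7% in wild-type embryos at E2.5, and 42.6% and 28.6% at E2.75. How far that share accounts for the lower gene counts per ERCC count of null embryos was not tested. Fewer cells and less RNA per cell cannot be told apart in these whole embryos.

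On the spike-in scale *Dppa3* was at 220 ± 43.4 (SD, n = 6) counts per 1000 ERCC counts in wild-type embryos at E2.5 and 142 ± 29.9 (SD, n = 3) at E2.75. In null embryos it was at 143 ± 24.0 (SD, n = 4) and 117 ± 35.9 (SD, n = 3). Between stages its log2 change was thus -0.63 in wild-type and -0.30 in null embryos, neither called, or -1.52 and -1.26 relative to the median of all genes. *Khdc1a* was at 13.1 ± 3.22 (SD, n = 6) and 5.88 ± 2.07 (SD, n = 3) in wild-type embryos and at 9.79 ± 2.73 (SD, n = 4) and 9.66 ± 3.34 (SD, n = 3) in null embryos, changes of -1.16, called, and -0.02. *Khdc1c* changed by -1.43 in wild-type embryos, called, and by -0.54 in null embryos. *Khdc3* changed by -1.20 in wild-type embryos and by 1.57 in null embryos, and the second of these was called. Relative to the median of all genes, *Khdc1a* changed by -2.04 in wild-type and -0.99 in null embryos. In the same order *Khdc1c* changed by -2.32 and -1.51 and *Khdc3* by -2.09 and 0.6 relative to that median. So 2 genes remained called lower in wild-type and none in null embryos, and the wild-type count was again 2 when the library labelled wild-type replicate 6 was left out as well, at -1.23 for *Khdc1a*, -1.48 for *Khdc1c* and -0.67 for *Dppa3*. In that case *Dppa3* was at 226 ± 45.4 (SD, n = 5) counts per 1000 ERCC counts in wild-type embryos at E2.5 and *Khdc1a* at 13.7 ± 3.18. In null against wild-type embryos at E2.75 none of the 3 was called on this scale, at 0.71 for *Khdc1a*, 1.05 for *Khdc1c* and 1.61 for *Khdc3*. The median of all genes was -0.4 in this comparison, and relative to it the 3 were at 1.12, 1.46 and 2.02. With TMM scaling they were at 1.13, 1.51 and 1.96 relative to the median.

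**Figure D4:**
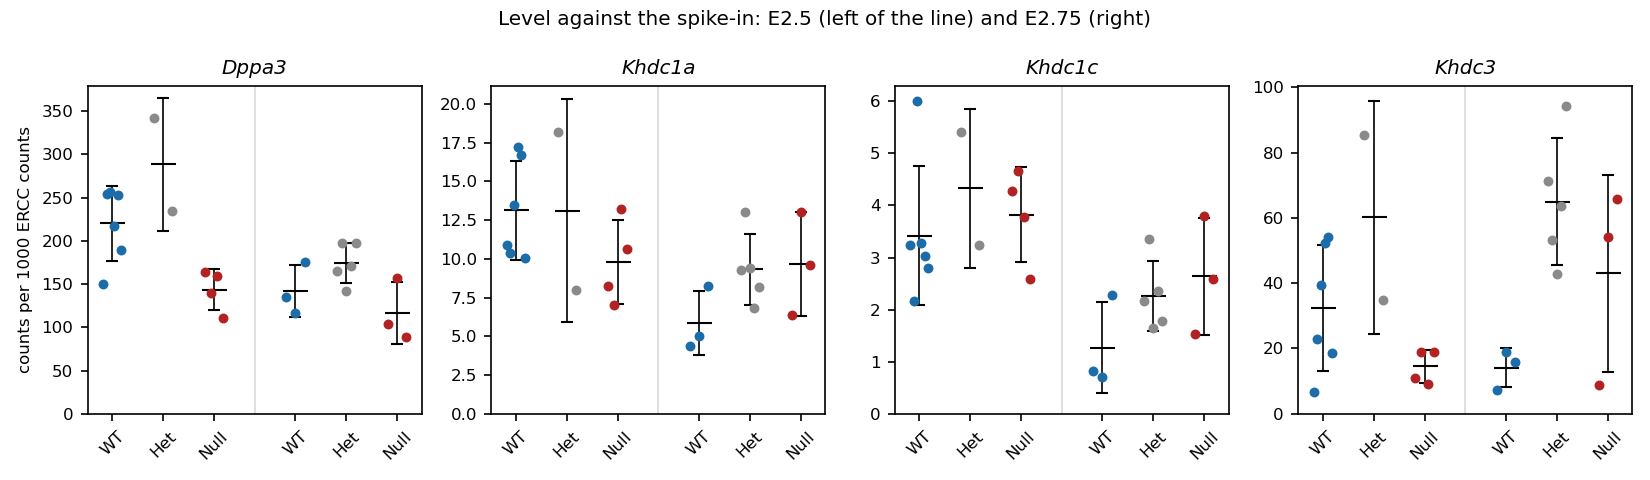
Counts per 1000 ERCC counts on the y axis for 4 genes by genotype on the x axis, E2.5 left and E2.75 right of the line; points are embryos, bars the mean and SD. Mean *Khdc1a* fell from 13.1 to 5.88 in wild-type embryos and was at 9.79 and 9.66 in null embryos, and *Dppa3* was at 143 in null embryos at E2.5 against 220 in wild-type embryos.

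Across the 23 embryos *Dppa3*, *Khdc1a* and *Khdc1c* varied together, with Pearson correlations of log2 CPM of 0.85 between *Dppa3* and *Khdc1a*, 0.83 between *Dppa3* and *Khdc1c* and 0.89 between *Khdc1a* and *Khdc1c*. Within groups of the same stage and genotype the values were 0.29, 0.38 and 0.40. These points share stage and genotype, and the last pair shares sequence, so the values only describe the embryos. *Khdc3* correlated with *Dppa3* at 0.18 and with *Khdc1a* at 0.30. Of 9538 other genes with a mean of at least 5 CPM, those most like *Dppa3* over the 23 embryos were *Snrpe* (r = 0.956), *Dppa3-ps* (0.956) and *Ptp4a2* (0.951). *Dppa3-ps* is a *Dppa3* pseudogene, at 23.8 ± 11.6 CPM (SD, n = 6) in wild-type embryos at E2.5, so reads of *Dppa3* may be counted there. *Ptrh2* was most like *Khdc1a* (0.929), *Hmgb1* most like *Khdc1c* (0.902) and *Calcoco2* most like *Khdc3* (0.867).

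Other genes of the oocyte were compared through lists, which were also chosen with earlier results known. Of 8 genes of the zona pellucida and oocyte secretion, such as *Zp3* and *Bmp15*, none was called between stages in wild-type embryos, where their median log2 fold change was -3.07, nor in null embryos, where it was -1.10. Their summed level was 43.5 ± 12.05 CPM (SD, n = 6) in wild-type and 52.7 ± 11.2 (SD, n = 4) in null embryos at E2.5, and 9.87 ± 3.90 (SD, n = 3) and 17.7 ± 5.53 (SD, n = 3) at E2.75. The medians rest in part on few counts. In wild-type embryos at E2.5 *Zp1* had 17 counts in 1 embryo, *Astl* 33 in 2 and *Oosp2* 44 in 3. None of these had a count in wild-type embryos at E2.75. *Nlrp5* (MATER), a further part of the subcortical maternal complex, was at 2.45 to 20.9 CPM in wild-type embryos at E2.5, while at E2.75 it was at 1.06, 0 and 5.94 CPM. Of 12 tested genes that handle maternal RNA, *Lsm14b* fell in wild-type embryos, by 1.71 on the log2 scale (adjusted p = 0.0473 by edgeR's quasi-likelihood test over all genes), and none was called in null embryos. Without the library labelled wild-type replicate 6, *Cnot7*, a subunit of the CCR4-NOT deadenylase, was called lower as well, at -1.04 (adjusted p = 0.0694 by edgeR).

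Of 3 *Dppa* relatives, *Dppa5a*, a KH-domain gene of pluripotent cells, fell between stages in wild-type embryos by 2.23 on the log2 scale (SE 0.44, adjusted p = 0.00415 by edgeR) and was higher in null than in wild-type embryos at E2.75 by 1.34 (SE 0.40, adjusted p = 0.0990). Of 11 maternal chromatin factors, *Trim28*, a co-repressor that holds imprints, rose in wild-type embryos by 1.15 (adjusted p = 0.0416 by edgeR), and none was called in null embryos. No oocyte transcription factor was called in either genotype, of 4 tested, and neither of the 2 tested further genes of the subcortical complex was. Of 10 markers of cleavage-stage embryos and morulae, the keratin gene *Krt8* fell between stages in wild-type embryos by 2.73 (adjusted p = 0.0144 by edgeR) and was higher in null than in wild-type embryos at E2.75 by 1.94 (adjusted p = 0.0887). Its partner *Krt18* was at 65.7 CPM in wild-type and 14.7 CPM in null embryos at E2.75 on average, a log2 fold change of -2.16 (SE 0.78) that was not called. Against het embryos at E2.75, *Krt18* and *Gata3*, a transcription factor of the trophectoderm, were lower in null embryos, at -3.20 (adjusted p = 0.0383 by edgeR) and -2.13 (adjusted p = 0.0859), and both were also called lower with the stages combined. The median log2 fold change of the 10 markers was 0.43 in null against wild-type and -0.66 in null against het embryos at E2.75. For all these lists the interaction between stage and genotype called none.

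POU6F1 peaks were the readout that the choice of genes did not use. Each of 2 replicates came with 2 peak lists, the first called against IgG in the same cells and the second against anti-mCherry in cells that expressed mCherry alone. The series lists a single library of each control. In replicates 1 and 2 the first lists held 82694 and 24524 peaks and the second 31348 and 3630, so shared peaks are limited by replicate 2. In the first lists, peaks shared by both replicates lay within 1 kb of a start site of *Tle6*, *Zbed3* and *Gdf9*, 3 of the 10 genes, against 47.9% of 21897 coding genes. In the second lists they lay near *Tle6* and *Gdf9*, 2 of 10, against 15.4%. No test was run on these counts. Neither *Dppa3* nor a *Khdc1* gene had a shared peak, while *Dppa3* and *Ooep* had a peak in the first list of replicate 1 only. The start of *Gdf9* is 192 bases from that of *Uqcrq*, on the other strand, so its peak cannot be given to one of them.

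The peak at *Tle6* (chr10:81600842-81601028 in replicate 2, second list) had a fold enrichment of 5.41 and a -log10 q of 9.14, and in replicate 1 of that list these were 19.2 and 53.6. Its bases are in capitals in the promoter of *Tle6*, shown because both lists held a shared peak there and, unlike at *Gdf9*, no other gene started within 1 kb. The stretch covers 300 bases around a RefSeq start that lies inside the gene as placed above, most of them before that start, on the minus strand of GRCm38.p6 from RefSeq, chr10:81600851-81601150.
*Tle6* promoter: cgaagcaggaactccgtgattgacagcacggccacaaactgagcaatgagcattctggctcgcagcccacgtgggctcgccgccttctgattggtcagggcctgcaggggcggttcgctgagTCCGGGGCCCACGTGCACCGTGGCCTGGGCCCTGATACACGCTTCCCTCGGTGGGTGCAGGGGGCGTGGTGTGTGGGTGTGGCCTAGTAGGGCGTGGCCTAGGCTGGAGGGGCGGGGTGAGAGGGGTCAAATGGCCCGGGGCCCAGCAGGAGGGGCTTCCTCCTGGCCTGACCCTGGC
The stretch is 68% G and C, and the homeodomain core TAATTA and the octamer ATGCAAAT, searched on both strands, were not in it. TAATTA is in 5.29% and ATGCAAAT in 1.74% of the 32851 promoters of the same length, and neither was found in the promoters of the 6 of 10 genes that had an entry. TAATGA was in promoters of *Khdc1b* and *Zbed3*, and in 9.78% of all promoters.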

How the data were processed

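Single embryos were sequenced after oligo-dT selection, with ERCC spike-in. The authors trimmed reads with cutadapt 3.4, aligned to GRCm38 (STAR 2.7.8a) and assigned reads to genes (HTSeq 0.11.4) without strand. The deposited values are raw counts per gene. POU6F1 peaks were called by the authors with MACS2 2.2.7.1, replicate by replicate, and the deposited lists give a fold enrichment and a -log10 q for each peak. Tool versions are those of the submitters' processing notes.

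Tests across genes used the quasi-likelihood test of edgeR 4.0.16 (R 4.3.3, TMM scaling, filterByExpr), in 1 fit of the 6 groups for changes between stages, 1 fit for each stage and 1 with the stages combined by genotype. Nothing in the sources says whether embryos shared a litter, so p-values measure the spread between these embryos. Log2 CPM used a prior count of 2. The SE is the log2 fold change over the root of the test's F. Levels were also scaled to 1000 ERCC counts. Peaks of both replicates were shared when they overlapped by at least 1 base. Gene models were GENCODE's. The scripts were tested on simulated data.

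The 10 genes and all lists were chosen with earlier results of these data known. Named genes were the 10, *Dis3*, *Nlrp5*, up to 3 called genes of each list and the 3 genes most correlated with each of the 10. *Dppa3-ps* also falls under the last of these, while *Gm20509* was named for its overlap, and the cumulus markers and examples of a list were named after their values were seen. Het against wild-type at E2.75, the change between stages in het embryos, the fits with stage as a term and spike-in scaling without wild-type replicate 6 of E2.5 were added after seeing the data. Alternatives were RLE size factors, spike-in scaling, no filter, a replicate block, only the groups compared, DESeq2 1.42.0, and each embryo left out in turn. Promoter entries were not found for *Dppa3*, *Khdc1a*, *Khdc1c* and *Gdf9*.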

Additional observations from a re-analysis of the deposited data

Results flagged for a closer look

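*Zbed3* held both values that stood apart from their group by Dixon's test of the gap to the nearest embryo. Wild-type replicate 6 of E2.5, by its label, was the highest of its group at 11.4559 CPM, and E2.5 null replicate 4 was the lowest of its group at 0 CPM. These were 2 of 30 groups of 4 or more embryos tested over the 10 genes, and chance gives about 1 in 20.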

How the results depend on the processing

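The number of the 10 genes called in wild-type embryos between stages was 4 under every alternative but spike-in scaling, where it was 2, also without wild-type replicate 6 of E2.5, and it stayed at 4 with each embryo left out. In null embryos it was 3, and 2 with RLE size factors, the replicate block or only the groups compared. With an embryo left out it was 1 to 3. With spike-in scaling it was 1 (*Khdc3*, higher), where 1969 of 18677 genes were called higher. With DESeq2 it was also 3, all lower, but *Tle6* was among them, so the set of genes was not the same. In het embryos it was 1, 0 with spike-in scaling, 2 with DESeq2 and 0 to 2 with an embryo left out. For the interaction it was 0, and 1 with no filter or with DESeq2. For null against wild-type embryos at E2.75 it was 3, 0 with spike-in scaling or the replicate block, 1 with only the groups compared, 4 with DESeq2 (3 higher and *Tle6* lower) and 0 to 3 with an embryo left out. For null against het embryos at E2.75 it was 0, and the alternatives differed in direction. It was 1 with RLE size factors (higher, as 421 of 14442 genes were). With no filter or only the groups compared it was 1 (lower, as 654 of 29549 and 342 of 13035 genes were). With spike-in scaling it was 2 (both lower), where 2164 of 14442 genes were called lower and the median log2 fold change of all was -0.74. With DESeq2 it was 2 (1 higher and 1 lower), where 956 of 29549 genes were called higher and 722 lower. With an embryo left out it was 0 to 1 (higher). With the stages combined it was 0, again with alternatives in opposite directions. It was 2 with spike-in scaling (both lower), where 4487 of 13415 genes were called lower and the median log2 fold change of all was -1.08. With only the groups compared or DESeq2 it was 2 (both higher), where 503 of 11483 and 1240 of 33616 genes were called higher. With an embryo left out it was 0 to 1 (1 higher without E2.5 het replicate 2 or E2.75 null replicate 2). For het against wild-type embryos at E2.75 it was 0, and 1 with no filter or DESeq2. The causes were not tested. Shared peaks of the second lists lay near 2 genes, and near 0 when at least 0.5 of each peak had to overlap or -log10 q had to reach 10. The share of coding genes with such a peak was then 4.6% and 4.93%. For the first lists the number was 3, and 2 under either setting (*Zbed3* and *Gdf9*, or *Tle6* and *Gdf9*), against 22.3% and 18.6% of coding genes. No result changed sign with a call on either side.

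Replicate numbers did not pair the embryos: same-numbered embryos had correlations of -0.096 to 0.068, none over 0.1. With the replicate block 4 genes were called in wild-type, 2 in null and 1 in het embryos between stages. Over all genes, the block took the calls of null against wild-type embryos from 216 higher and 73 lower to 29 and 12 at E2.5, and from 316 and 340 to 102 and 104 at E2.75. DESeq2 called 798 higher and 582 lower between the stages of null embryos against 231 and 330, and only the groups compared 50 and 85. Spike-in scaling called 3218 higher and 59 lower between the stages of wild-type embryos against 698 and 680. With 2 to 6 embryos a group and genes such as *Tle6*, *Zbed3* and *Gdf9* near a few counts, differences in those genes were not detectable unless large.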
